A study of Mus musculus with 19 samples.

Results

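Chr9 past 9 Mb on mm9 (NCBI37) was examined by aCGH in liver tumors and unaffected liver of mice with a conditional deletion of Mad2l1 in hepatocytes. Mad2l1 is a gene of the spindle assembly checkpoint, and its excision was not checked here. The tumors were either hepatocellular adenoma (HCA) or hepatocellular carcinoma (HCC). The members were the probes whose position in the scanner files starts beyond 9 Mb on Chr9. There were 11488 such probes of 234018 on the autosomes, X and Y, and they ran from 9001858 to 124046785. The stretch up to 9 Mb holds the Yap1 locus and was left out. In aCGH, differently labeled tumor and control DNA bind the same probes, and the log2 of the signal ratio (the aCGH ratio) follows the number of DNA copies.

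The 19 arrays held 4 HCAs, 6 HCCs and 9 unaffected livers from 9 mice, with 1 unaffected liver per mouse. All mice were labeled Mad2(f/f) with AlbuminCre on a C57BL/6.129 background, so the unaffected livers carried the floxed Mad2 alleles and the Cre too. The paper used this Cre to recombine Mad2l1 in developing hepatocytes, and a liver also holds other cell types. The HCAs came from females, 2430 and 6199 with Trp53 f/f at 16.9 and 12 months, and 5884 and 5901 with Trp53 f/+ at 14.2 and 12 months. The HCCs came from mice labeled p53ser246+, which carry Trp53 R246S, the murine analog of a dominant-negative mutation of human HCC: tumors 6240-4 and 6240-2 of female 6240 at 16.2 months, female 6602 at 13.2 months, and males 6487, 6565 and 6642 at 12.8, 14.7 and 12.3 months. A strain label of the series reads p53ser249 instead, and the paper gives R249S as the human mutation. HCA and HCC share no Trp53 genotype, so tumor type and genotype cannot be told apart. Sample DNA was labeled with Cy5 and sex-mismatched control liver DNA with Cy3. A bulk ratio cannot separate the share of cells that lost a copy from the number of copies lost in each.

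Loss of a chromosome can arise when a whole chromosome goes to the wrong daughter cell, which lowers every probe by the same amount, or from breaks within the chromosome, which lower only the stretch between them. The spindle assembly checkpoint, of which Mad2 is a core part, holds cells in mitosis until every chromosome is attached, and its loss is known to raise the rate of whole-chromosome errors. Mouse Chr9 carries genes of both processes. In RefSeq GRCm38.p6, 1173 protein-coding and 52 miRNA genes lie distal to Yap1 on Chr9 by gene order, and all 60 genes of 4 lists made for this chromosome are among them. They comprise 21 genes of the DNA damage response and tumor suppression, 8 of mitosis, 18 of liver metabolism and plasma proteins, and 13 of growth signalling. The first list holds the damage kinases Atm, Atr and Chek1 and the TGF-beta receptor gene Tgfbr2. The list of mitosis holds Ttk, which encodes the checkpoint kinase Mps1, and Zw10, whose product recruits checkpoint proteins to kinetochores. Apoa1 encodes the main protein of high-density lipoprotein, Dnmt1 maintains DNA methylation, and Ctnnb1 encodes beta-catenin. RefSeq uses another build than the arrays, so no ratio was assigned to a single gene, and the genes were not placed on either side of a break.

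Among the miRNA genes of this chromosome are loci known from liver cancer and from the response to p53, and their mature products are given here because these genes are part of the stretch examined. The sequences are from RefSeq GRCm38.p6 in gene order along the chromosome, with the seed (bases 2 to 8) in capitals.
mmu-miR-125b-5p: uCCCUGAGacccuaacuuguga
mmu-miR-34c-3p: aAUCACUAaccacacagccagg
mmu-miR-34b-3p: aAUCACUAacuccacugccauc
mmu-miR-34b-5p: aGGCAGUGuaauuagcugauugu
mmu-let-7g-5p: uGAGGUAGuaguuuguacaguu
mmu-miR-26a-5p: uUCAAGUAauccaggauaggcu
The 3p products of Mir34b and Mir34c share their seed, and both genes are neighbours that p53 is known to induce. The mature miR-125b-5p and miR-26a-5p are each also made from a second locus, Mir125b-2 and Mir26a-2. No RNA was measured here.

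On every array, 97.8% to 99.9% of the Chr9 spots were well above background in both channels. The noise between neighbouring Chr9 probes (the scaled median difference of neighbours) was 0.19 to 0.43 on the log2 scale, and the highest value was that of liver 6240. The X chromosome ratio was above 0 in all females and below 0 in all males, as the sex labels and the control DNA require. It was 0.32 in HCC 6240-2, against 1.04 in its own liver and at least 0.73 in the other female samples. The size of the X ratio in the 9 unaffected livers was 0.89 to 1.04, which is the size that a 2-fold difference in copy number took on these arrays.

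Chr9 was lower in all 4 HCAs than in every unaffected liver. The aCGH ratio of Chr9 past 9 Mb was −0.37 in HCA 2430, −0.16 in HCA 5884, −0.16 in HCA 5901 and −0.11 in HCA 6199. HCA 2430 stood lowest, and the other 3 HCAs lay close together. The 9 unaffected livers ranged from −0.0045 to 0.079 with a median of 0.024, so the groups did not overlap. The mean was −0.20 ± 0.12 (SD, n = 4) in HCA and 0.026 ± 0.029 (SD, n = 9) in unaffected liver. The difference of −0.23 passed the exact two-sided permutation test (p = 0.0014, the smallest that 715 assignments allow, and adjusted p = 0.0044 over the 19 autosomes). Of the 19 autosomes, 36.8% passed as lower in HCA, and 26.3% were lower in every HCA than in every unaffected liver, so Chr9 was 1 of several autosomes with this pattern. Within scan days the difference was −0.27 on the first day (2 HCAs and 3 livers) and −0.16 on the second (2 HCAs and 2 livers), and permutation within days gave an exact adjusted p of 0.029. The size of the difference depended on the background correction: it was −0.097 with normexp (exact adjusted p = 0.011) and −0.12 without background correction (exact adjusted p = 0.0053). The exact sign-flip test of HCA minus own liver could not go below p = 0.125 with 4 mice, and gave a mean of −0.20 with all 4 below 0.

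**Figure D1:**
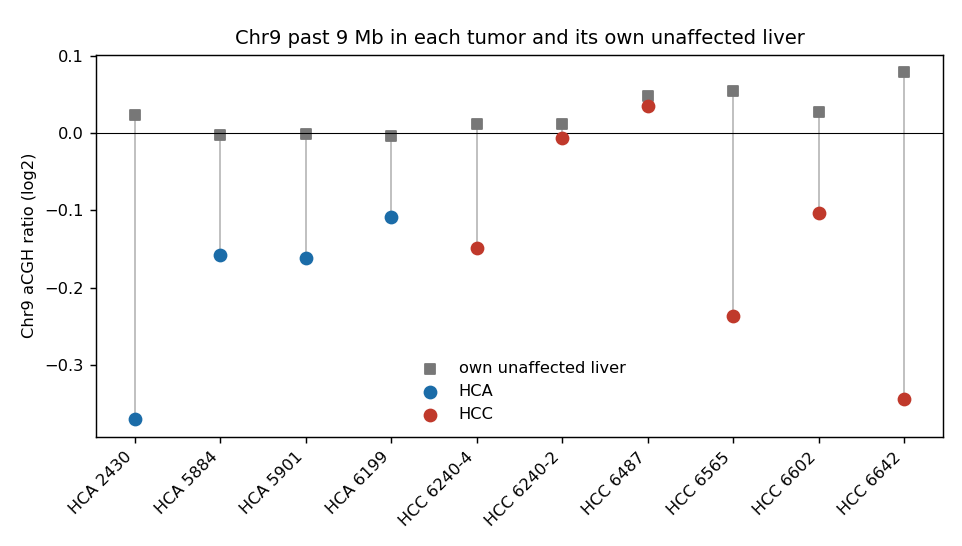
Mean aCGH ratio (log2) of Chr9 past 9 Mb in each tumor (circles, blue for HCA and red for HCC) joined by a line to the unaffected liver of the same mouse (grey squares). All 4 HCAs lie below every liver, whereas HCC 6240-2 and HCC 6487 sit beside their own livers and HCA 2430 and HCC 6642 reach −0.37 and −0.34.

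The HCCs were more spread than the HCAs, and Chr9 was near the level of the livers in 2 of the 6. The aCGH ratio was −0.34 in HCC 6642, −0.24 in HCC 6565, −0.15 in HCC 6240-4, −0.10 in HCC 6602, −0.0069 in HCC 6240-2 and 0.035 in HCC 6487. The first 4 lay clearly below every unaffected liver, HCC 6240-2 lay just under the lowest liver, and HCC 6487 lay among the livers. The mean was −0.13 ± 0.14 (SD, n = 6), and the difference of −0.16 from unaffected liver passed the exact two-sided permutation test (p = 0.0038, adjusted p = 0.014), as did 21.1% of the autosomes in this direction. That test took each array as a separate sample and did not use the pairing by mouse. With the HCCs of mouse 6240 averaged the difference was −0.17 (exact adjusted p = 0.013). The call was lost when females alone were compared (−0.096, exact adjusted p = 0.090), when only the livers of the same mice were used (−0.18, exact adjusted p = 0.10) and when samples were permuted within scan days (−0.17, exact adjusted p = 0.075). It was also lost with normexp background correction (−0.097, exact adjusted p = 0.068) and without centring (−0.14, exact adjusted p = 0.053), and was kept at −0.11 without background correction (exact adjusted p = 0.011). On the second scan day the single HCC, 6487, exceeded the mean of 2 livers by 0.014, and on the third the 5 HCCs minus the 4 livers gave −0.21. The sign-flip test of HCC minus own liver had a smallest exact p of 0.0625 with 5 mice, and gave a mean of −0.19.

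Unaffected livers of the 3 males had the 3 highest Chr9 ratios, 0.048, 0.054 and 0.079, against −0.0045 to 0.028 in the 6 females. Among mice with Trp53 R246S, the female livers 6240 and 6602 were at 0.011 and 0.028, below the 3 males. Livers of males were hybridized against female control DNA and those of females against male control DNA, so sex and control DNA cannot be told apart. The separation by sex was not tested, and the share of other autosomes that show it was not counted.

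HCC and HCA did not differ beyond their spread on Chr9. The mean of HCC was 0.065 higher with an SE of 0.059 by limma over the autosomes, and the exact permutation test gave p = 0.46 (adjusted p = 0.76), while 10.5% of the autosomes passed in either direction. Against their own livers the means were −0.19 over 5 mice with HCC and −0.20 over 4 mice with HCA (exact permutation p = 0.90).

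The lower ratio ran along the whole length of Chr9 in the HCAs. The 23 bins of 5 Mb from 9 Mb to the end of the chromosome held 315 to 721 probes each. In all 23 bins every HCA lay below every unaffected liver. Of whole autosomes, 26.3% had this separation, and its share over all autosomal bins was not counted. All 23 bins passed limma across the 490 autosomal bins as lower in HCA (adjusted p under 0.05), against 27.1% of all autosomal bins. The differences ranged from −0.25 in bin 6 (chr9:34000001-39000000, SE 0.057, limma adjusted p = 0.0014) to −0.19 in bin 5 (chr9:29000001-34000000, SE 0.058, adjusted p = 0.011). These extremes are neighbours, and their distance is about the SE of a bin. The median over the Chr9 bins was −0.23, beside 0.023 over all autosomal bins. Without HCA 2430, 15 of the 23 bins passed, and with normexp background correction 1 bin passed.

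In HCC, 19 of the 23 bins passed limma as lower than in unaffected liver, against 20% of all autosomal bins. The bins that did not pass were 2, 20, 22 and 23, and bins 22 and 23 form the distal end. The difference was largest in bin 13 (chr9:69000001-74000000), at −0.19 with an SE of 0.054 and a limma adjusted p of 0.014, and smallest in bin 23 (chr9:119000001-124046785), at −0.11 with an SE of 0.050 and an adjusted p of 0.12. Bin 1, at the proximal end, had −0.12 with an adjusted p of 0.047. HCC 6565 minus own liver was −0.0015 in bin 1 and −0.046 in bin 23, against −0.38 in bin 13. The part of this tumor in the smaller group differences at the ends was not tested. The median over the Chr9 bins was −0.16, beside 0.012 over all autosomal bins. The count rested on the HCC with the deepest loss: without HCC 6642, 3 bins passed. It was 0 in females alone and 0 with normexp. Between HCC and HCA, 0 bins passed limma (1 had an unadjusted p under 0.05), against 22.0% of all autosomal bins in either direction. The differences ran from 0.021 in bin 14 to 0.12 in bin 1, and without HCC 6642 4 bins passed, as higher in HCC.

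**Figure D2:**
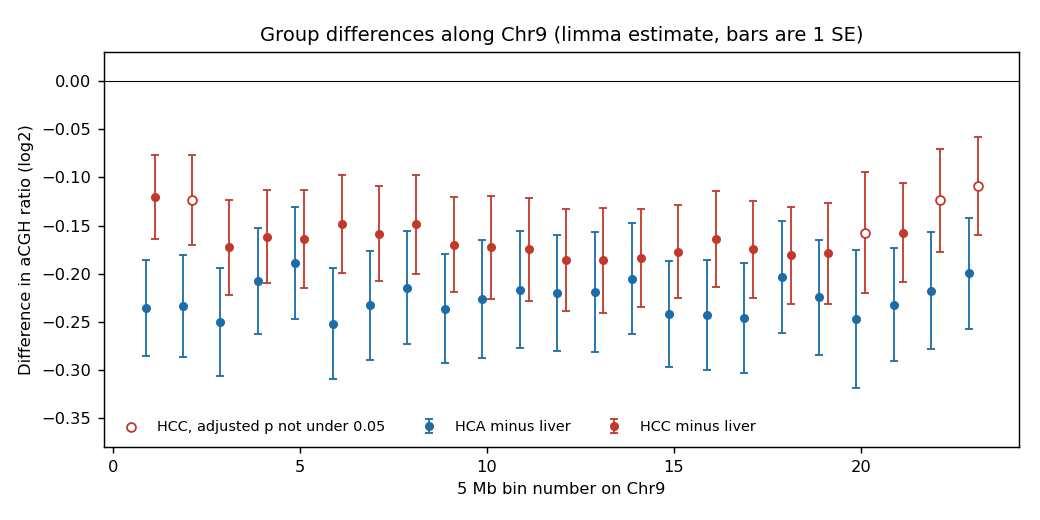
Difference in aCGH ratio (log2) between HCA and liver (blue) and between HCC and liver (red) in the 23 bins of 5 Mb along Chr9, as limma estimates with bars of 1 SE. Open circles mark the 4 HCC bins (2, 20, 22 and 23) with a limma adjusted p not under 0.05, and HCC differences are smallest toward both ends.

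The profile along Chr9 was then examined in single tumors, set against their own livers. Segments were sought in windows of 20 neighbouring probes, with at least 10 windows per segment and a step of at least 0.2 in tumor minus own liver. HCC 6565 had 3 segments, and no break of this size was called in the other 9 tumors or in the 9 unaffected livers. Chr9 as a whole was lower than the own liver by more than this step in HCA 2430, HCC 6565 and HCC 6642. In the other 7 tumors a loss of a stretch at the depth of the chromosome mean, −0.16 to −0.013, could not have been called. With a step of 0.1, 6 of these 7 had no break, and HCC 6240-4 had 3 segments. At this step too, a loss at the chromosome mean of HCC 6240-2 (−0.018) or HCC 6487 (−0.013) could not have been called. That of HCA 6199 (−0.10) lay at the limit.

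**Figure D3:**
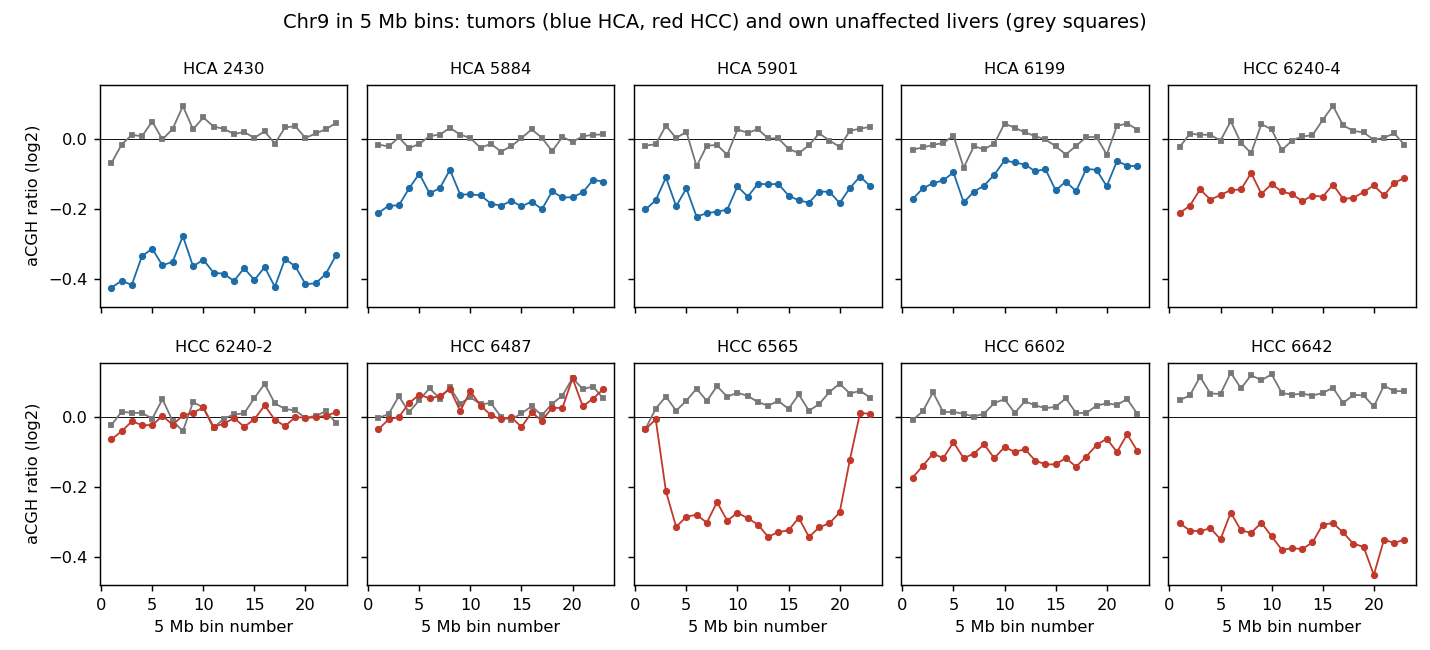
Mean aCGH ratio (log2) of the 23 bins of 5 Mb along Chr9 in each tumor (circles, blue for HCA and red for HCC) and in its own unaffected liver (grey squares). HCC 6565 steps down between bins 2 and 4 and up again between bins 20 and 22, HCC 6240-2 and HCC 6487 overlie their livers, and the other 7 tumors run below their livers in every bin.

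The deepest losses along the whole of Chr9 were in HCA 2430 and HCC 6642. Chr9 minus own liver was −0.39 in HCA 2430, with bins from −0.43 to −0.34, and −0.42 in HCC 6642, with bins from −0.48 to −0.35. On the linear scale these are 0.76 and 0.75 of the ratio of the own liver. Chr9 had the lowest value of the 19 autosomes in both tumors when their own liver was subtracted, and also in HCC 6565. In the ratios of the tumors alone, Chr9 was the lowest in HCA 2430 only. Chr12 was the lowest in HCC 6642, at −0.39, and Chr13 in HCC 6565, at −0.32. Chr9 was the highest autosome in livers 2430 and 6565 and ranked 18 of 19 from the lowest in liver 6642. Taken as a share of the log2 step of the X chromosome in the own liver, the Chr9 loss was 43.8% in HCA 2430 and 46.2% in HCC 6642.

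Chr9 was lower by less, and in every bin, in 5 tumors. Chr9 minus own liver was −0.16 in HCA 5884 (bins from −0.21 to −0.085), −0.16 in HCA 5901 (bins from −0.19 to −0.13) and −0.10 in HCA 6199 (bins from −0.14 to −0.077). Among the HCCs it was −0.16 in HCC 6240-4 (bins from −0.23 to −0.057) and −0.13 in HCC 6602 (bins from −0.18 to −0.087). HCC 6240-4 was the most uneven of these, with an SD over bins of 0.041 in tumor minus own liver against 0.016 to 0.031 in the other 4. The bins of the 5 tumors did not reach those of HCA 2430 or HCC 6642.

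HCC 6565 had an interstitial loss. Its 3 segments were a proximal flank from 9001858 to 20644712 at −0.025, an interstitial segment from 20660437 to 110533807 at −0.36, and a distal flank from 110539469 to 124046785 at −0.053, each as tumor minus own liver. The interstitial segment spanned 89.9 Mb and held 9125 of the 11488 probes, or 79.4%. Its depth, 0.78 of the own liver on the linear scale, lay close to the whole-chromosome losses of HCA 2430 and HCC 6642, whereas its flanks were at 0.98 and 0.96. These segments were found from the values and are described without a test.

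The breaks of HCC 6565 lay between single probes. At the proximal break the last probe outside the loss was chr9:20644653-20644712 and the first inside was chr9:20660437-20660496, with 15724 bases between them, both in the difference from the own liver and in the ratios of the tumor alone. The 20 probes before it averaged 0.0043 and the 20 after it −0.30 in tumor minus own liver. At the distal break the difference from the own liver placed the edge between chr9:110533748-110533807 and chr9:110539469-110539524, where the mean of 20 probes went from −0.34 to −0.020. The ratios of the tumor alone placed it between chr9:110517754-110517813 and chr9:110523631-110523690. The SD of single probes in the interstitial segment, 0.27 in tumor minus own liver, was about as large as the step, which limits how closely an edge can be placed.

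**Figure D4:**
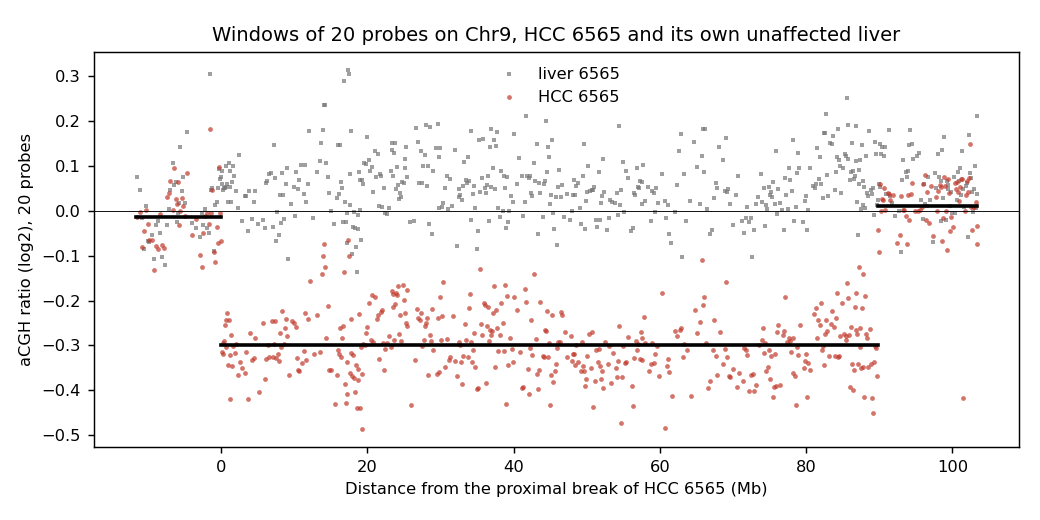
Mean aCGH ratio (log2) of windows of 20 probes along Chr9 in HCC 6565 (red circles) and liver 6565 (grey squares), against the distance in Mb from the proximal break, with black lines at the segment means of the tumor. The tumor lies at −0.30 over 89.9 Mb between the breaks and at −0.014 and 0.011 outside them, and the liver shows no step.

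The bins on both sides of the breaks showed the same steps. In HCC 6565 the aCGH ratio was −0.0058 in bin 2, −0.21 in bin 3, which holds the proximal break, and −0.31 in bin 4. At the distal side it was −0.27 in bin 20, −0.12 in bin 21, which holds the break, and 0.013 in bin 22. Liver 6565 was between 0.018 and 0.096 in these bins. The proximal flank went on beyond the members: the median of the Chr9 probes up to 9 Mb was −0.034 in HCC 6565 minus own liver, against −0.37 in HCA 2430 and −0.38 in HCC 6642.

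No other sample had a step at these positions. The interstitial segment minus the flanks, as a difference in aCGH ratio, was −0.30 in HCC 6565. Over the other 18 samples it ranged from −0.019 to 0.020 with an SD of 0.011. In HCC 6642 the 3 stretches were −0.37, −0.43 and −0.43 against the own liver from proximal to distal, and in HCA 2430 they were −0.39, −0.40 and −0.39. The position was chosen on HCC 6565, so its own value is a description.

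The 2 HCCs of mouse 6240 differed on Chr9. The aCGH ratio was −0.15 in HCC 6240-4, with bins from −0.21 to −0.097, and −0.0069 in HCC 6240-2, with bins from −0.063 to 0.034, so no bin of the first tumor reached any bin of the second. They share an own liver, at 0.011, and came from 1 mouse, so no test between them was possible. HCC 6240-2 also had the X ratio nearest to 0 of all female samples, at 0.32, against 0.73 in HCC 6240-4. Its lowest autosome stood at −0.063, against −0.18 in HCC 6240-4. The cause of these smaller values was not tested. With a minimum step of 0.1 in place of 0.2, HCC 6240-4 also had 3 segments, with −0.18 up to 40.95 Mb, −0.036 from 40.97 to 47.36 Mb and −0.16 beyond. In the middle stretch the ratio of the tumor alone was −0.099, that of its liver was −0.063, and HCC 6240-2 minus the same liver was 0.051. The liver of mouse 6240 was lower there than in its flanks (0.017 and 0.015), and its part in the step was not tested.

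Unevenness along the chromosome, the SD of the aCGH ratio over the 23 bins of a sample, did not separate the tumor types from liver after adjustment. It was 0.119 in HCC 6565, and between 0.022 and 0.038 in the other 9 tumors. In the 9 unaffected livers it ranged from 0.019 to 0.033 with a median of 0.029. The HCAs averaged 0.035 ± 0.0027 (SD, n = 4) and the livers 0.028 ± 0.0051 (SD, n = 9), while the HCCs averaged 0.045 ± 0.037 (SD, n = 6). HCA exceeded liver by 0.0074 (exact permutation p = 0.021, adjusted p = 0.11) and HCC by 0.017 (exact permutation p = 0.092, adjusted p = 0.44). The HCA difference was −0.00032 with normexp and 0.00026 without background correction (exact permutation p = 0.97 and 0.92). Without HCC 6565 the difference between HCC and liver was 0.0025, so 1 tumor set it.

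Chr3, Chr12 and Chr13 are the other autosomes most like Chr9 in these tumors, and Chr9 differed from none of them by the tests run. Over the 9 mice, with the HCCs of mouse 6240 averaged, tumor minus own liver had a mean of −0.20 for Chr9, −0.20 for Chr3, −0.24 for Chr12 and −0.24 for Chr13. Chr9 minus Chr3 had a mean of 0.0016 ± 0.14 (SD over 9 mice) and an exact sign-flip p of 0.97. Chr9 minus Chr12 was 0.044 ± 0.20 (exact p = 0.52) and Chr9 minus Chr13 was 0.042 ± 0.15 (exact p = 0.49), with adjusted p of 0.94 for both over 6 tests. These differences ran over mice from −0.26 to 0.19, −0.28 to 0.40 and −0.17 to 0.37. For the SD over bins, taken in the tumor minus that in its own liver, Chr9 exceeded the other chromosomes by 0.0070, 0.0090 and 0.012 in that order, with exact p of 0.84, 0.63 and 0.12 and a lowest adjusted p of 0.73. Tumors with much and little loss were not the same for the 4 chromosomes. HCC 6487 had −0.013 on Chr9 but −0.17 on Chr3, −0.41 on Chr12 and −0.38 on Chr13. HCC 6565 had −0.29 on Chr9, −0.24 on Chr13, −0.032 on Chr3 and −0.011 on Chr12.

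**Figure D5:**
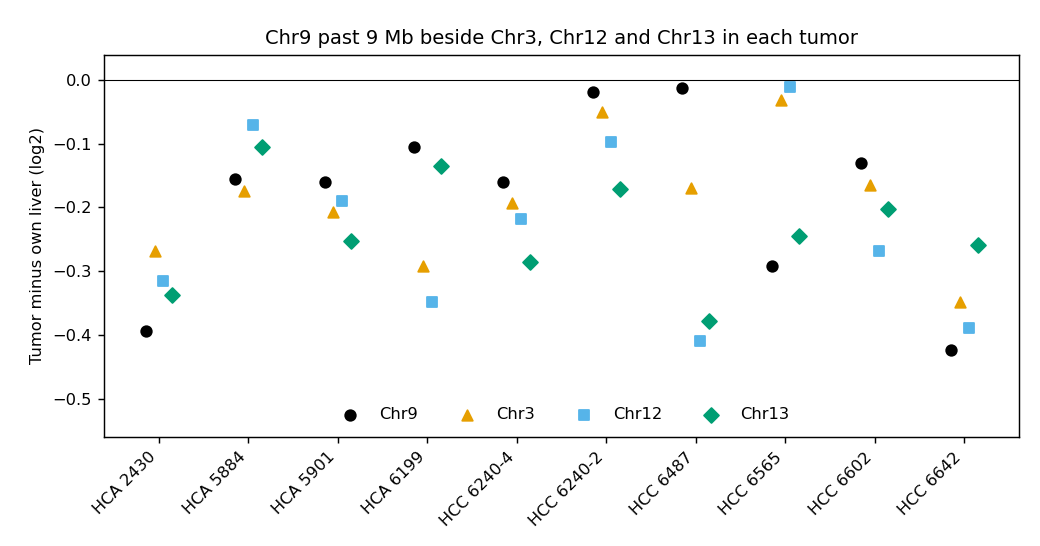
Tumor minus own liver (log2) in each of the 10 tumors for Chr9 past 9 Mb (black circles), Chr3 (triangles), Chr12 (squares) and Chr13 (diamonds). Chr9 is the lowest of the 4 in HCA 2430, HCC 6565 and HCC 6642 and the highest of the 4 in 6 tumors, among them HCC 6487.

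Focal changes on Chr9 past 9 Mb were few. A window of 20 probes was counted where tumor minus own liver lay over 0.3 from its running median over 51 windows. On Chr9 5 of 5732 windows in the 10 tumors were counted, or 0.0872%, against 0.164% over the autosomes. They belonged to 4 tumors and no window was shared. The largest was in HCA 2430 at chr9:70347285-70514624, where the window lay at −0.82 against its own liver and 0.41 below its surroundings. HCA 5901 had a window at chr9:44549932-44680305 that lay 0.32 below its surroundings and a window at chr9:123897215-124023520 that lay 0.32 above. HCC 6240-4 had a window 0.32 above at chr9:121148768-121314191, and HCC 6565 had a window 0.34 below at chr9:122081324-122236215 in its distal flank. With 1 window each, these are values without a replicate check.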

How the data were processed

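Genomic DNA was hybridized to Agilent mouse CGH arrays with 243301 spots. The deposited scanner files of the 19 arrays hold log10 ratios of Cy5 over Cy3, processed signals and median intensities of spot and local background, which the authors made with Feature Extraction 10.5.1.1 on mm9 with background subtraction, spatial detrending and linear dye normalization. The deposited series table of log10 ratios gave the same values for every result recomputed from it.

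Here the log10 ratios were converted to log2. Spots marked as outliers were left out, spots of a probe were averaged (11604 Chr9 spots gave 11488 probes), and each array was centred on the median of its autosomal probes. Chromosomes and 5 Mb bins were means of probes. Group means were set against each other by two-sided exact permutation with Benjamini-Hochberg adjustment over 19 autosomes, and bins by limma 3.58.1 on 490 autosomal bins with all 19 arrays in 3 groups. Chr9 was set against Chr3, Chr12 and Chr13 by exact sign flips over mice. The threshold was an adjusted p of 0.05. Precision is limited by how few arrays each group has. The rule for what is named took the lowest and highest bin of each group difference, the bins beside each break and listed genes. The named focal windows and miRNAs were chosen after their values or roles were known.

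Tumor and liver with the same number come from the same mouse, per the labels. Across the autosomes the deviations of a tumor and its own liver from their group means had correlations of −0.23 to 0.29, above 0.1 in 5 of 10 pairs. Alternatives were other background corrections (normexp with an offset of 50 or none, on median signals), loess, the series table, 4 centrings, medians, 3 probe filters, other tests, bin sizes and break settings, the mouse or scan day in the fit, females only and each sample left out. The HCCs of mouse 6240 were also averaged. Livers of the same mice only and permutation within scan days were added after the data were seen. Segmentation and bin fits were also run on simulated data of known loss, and the outcome of those runs is not reported here. The members and lists were chosen with earlier results of these data known. The authors' calls were not used here.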

Additional observations from a re-analysis of the deposited data

Results flagged for a closer look

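HCC 6565 stood apart from the other HCCs in 3 values. Its SD over the Chr9 bins was 0.119, against 0.038 in the next HCC, and the SD over bins of tumor minus own liver was 0.125, against 0.041. The interstitial segment minus the flanks was −0.30, against −0.019 in the next HCC, on a position set by the breaks of HCC 6565 itself. HCA 2430 stood apart from the other HCAs in bin 1, at −0.42 against −0.21 in the next. In 31 groups of values tested for a sample far from the others, 4 were found. Chance gives about 1 in 20 groups only where the groups are independent. These overlap, as 3 of the 4 measure the same loss in HCC 6565, so the count cannot be set against that rate.

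The 63 spots on unplaced Chr9 sequence (chr9_random) were outside the members. Their median in tumor minus own liver had a mean of −0.21 over 9 mice, below 0 in 8 of the 9, with a range from −0.40 to 0.026 (exact sign-flip p = 0.0078). By tumor it was −0.40 in HCA 2430, −0.27 in HCA 5884, −0.12 in HCA 5901, −0.072 in HCA 6199, −0.34 in HCC 6240-4, −0.089 in HCC 6240-2, 0.026 in HCC 6487, −0.20 in HCC 6565, −0.25 in HCC 6602 and −0.36 in HCC 6642. HCC 6487 was the tumor above 0.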

How the results depend on the processing

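Of 352 recomputed values, 326 kept their direction and their side of the threshold, or stayed within the limit set for a count, and 11 changed sign. The HCA minus liver difference kept its call except in the sign-flip test with the replicate block (−0.20, exact adjusted p = 0.18), where 4 mice cannot go below p = 0.125, and ranged from −0.26 to −0.17 with a sample left out. It kept its call but shrank to −0.097 with normexp and −0.12 without background correction. The HCC minus liver difference lost its call with normexp (−0.097), without centring (−0.14), with the sign-flip replicate block (−0.19, exact adjusted p = 0.20), in females only (−0.096), with livers of the same mice only (−0.18) and within scan days (−0.17), and ranged from −0.19 to −0.12 with a sample left out. With the mouse as a replicate block, limma gave −0.23 for HCA (adjusted p = 0.0034, 23 bins) and −0.15 for HCC (adjusted p = 0.025, 17 bins). The block in limma was used only for these comparisons with liver. Bins that passed numbered 1 for HCA and 0 for HCC with normexp and 0 for HCC in females only. They numbered 15 to 23 for HCA, 3 to 23 for HCC and 0 to 4 for HCC against HCA with a sample left out, and 1 for HCC against HCA in bins of 1 Mb. The HCA minus liver difference in unevenness was −0.00032 with normexp and 0.00026 without background correction. Chr9 minus Chr3 changed sign with normexp (−0.0090) and without background correction (−0.00046), and ran from −0.022 to 0.034 with a mouse left out. The SD over bins against Chr3 and Chr12 ran from −0.0039 to 0.010 and from −0.0017 to 0.013, and was below 0 without mouse 6565. HCC minus HCA was 0.00054 with normexp and 0.010 without background correction. With a step of 0.1, 2 tumors had a break. For each change the cause was not tested. The noise of single probes, 0.19 to 0.43, limits how small a step can be seen.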

Other observations

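The Chr9 probes up to 9 Mb, outside the members, had a median in tumor minus own liver of −0.37 in HCA 2430, −0.21 in HCA 5884, −0.14 in HCA 5901 and −0.14 in HCA 6199. Among the HCCs it was −0.19 in HCC 6240-4, −0.081 in HCC 6240-2, −0.094 in HCC 6487, −0.034 in HCC 6565, −0.19 in HCC 6602 and −0.38 in HCC 6642. HCC 6487 and HCC 6240-2 were lower in this stretch than over the rest of Chr9, where they had −0.013 and −0.018. So were HCA 5884, HCA 6199, HCC 6240-4 and HCC 6602, whereas HCA 2430, HCA 5901, HCC 6565 and HCC 6642 were not. Values of this stretch are medians and those of the rest are means, so the comparison is of unlike measures. HCC 6565 was the tumor nearest to 0 in this stretch.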
